A study of Mus musculus with 4 samples.

Results

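The genes described here are 10 genes of the fibroblast growth factor (FGF) to ERK pathway, out of the 53379 gene identifiers of the files. They were picked as a pathway by role, by a rule that uses no measured value. The 10 genes and all other lists were nevertheless chosen with earlier results of these data known. The 10 are the ligand *Fgf4*, the receptors *Fgfr1*, *Fgfr2*, *Fgfr3* and *Fgfr4*, the feedback inhibitors *Dusp6*, *Spry2* and *Spry4*, and the target transcription factors *Etv4* and *Etv5*. The cells were DKO741, 1 line of *Terc*-/- mouse embryonic stem cells made from E14 cells, in which both alleles of the telomerase RNA gene were targeted in turn and the selection gene was removed with a Cre adenovirus after the first. Pre-ALT cells at population doubling 100 (PD100) were compared with post-ALT survivors of the same line at population doubling 800 (PD800), which keep their telomeres without telomerase by alternative lengthening of telomeres (ALT), with 2 libraries of each. No *Terc*+/+ library is part of the comparison, both groups lack telomerase, and time in culture and the ALT state cannot be told apart. Stocks were kept on mouse embryonic fibroblast feeders, and feeder-free cells were used for extraction. The culture medium is not given in the sources used here.

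FGF ligands bind receptor tyrosine kinases, which pass the signal through adaptors to RAS, RAF, MEK and the kinase ERK. ERK activity switches on transcription factors of the ETS family such as ETV4 and ETV5, and it also switches on its own inhibitors, the dual-specificity phosphatases and the Sprouty proteins, so that their transcripts are widely read as a record of ERK activity. In mouse embryonic stem cells, *Fgf4* is made by the cells themselves under the control of OCT4 and SOX2, and FGF4 acting through ERK prepares the cells to leave the naive state and, in the embryo, drives part of the inner cell mass towards primitive endoderm.

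The libraries held between 32454121 and 38492149 expected counts, RSEM's estimated number of read pairs per gene. A floor of 3 counts, which covers counting error only, was equal to 0.0743 to 0.0934 CPM, the unit of counts after scaling by library total and edgeR's TMM factors. *Terc* itself had 1 expected count in PD100 replicate 1 and 0 in the other 3 libraries. The PD100 replicates differed more from each other than the PD800 replicates did, with a chi-square per degree of freedom of 65.3 against 10.1 across genes. Levels are given as TPM, RSEM's scale that is corrected for transcript length and allows genes to be compared, and changes as log2 fold changes of PD800 over PD100 from edgeR's quasi-likelihood test. The methods call the libraries biological duplicates, but no source says that they were grown apart, so the p-values measure the spread between these samples. An exact permutation test (two-sided) of any gene in groups of 2 cannot go below p = 0.333, and edgeR reaches smaller values by borrowing its estimate of spread from the whole transcriptome.

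The ligand rose and the scarce receptors fell, while the 3 feedback genes stayed within 2-fold. All 10 genes passed edgeR's expression filter. A gene was called where its adjusted p was below 0.01 and it changed more than 2-fold. By this rule 1 of the 10 was called higher in PD800 cells (*Fgf4*), where 6.28% of all 19148 tested genes were called higher, and 2 were called lower (*Fgfr3* and *Fgfr4*), where 8.81% of all tested genes were called lower. At an adjusted p under 0.01 with any fold, 2 were higher (*Fgf4* and *Dusp6*) against 13.1% of all genes, and 3 were lower (*Fgfr3*, *Fgfr4* and *Etv4*) against 15.4%. The other 5, *Fgfr1*, *Fgfr2*, *Spry2*, *Spry4* and *Etv5*, passed neither. The median log2 fold change of the 10 genes was -0.16, beside 0.01 for all tested genes. Counts of 1 to 3 out of 10 are too small to set the 10 genes apart from the transcriptome, and they are described gene by gene.

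**Figure D1:**
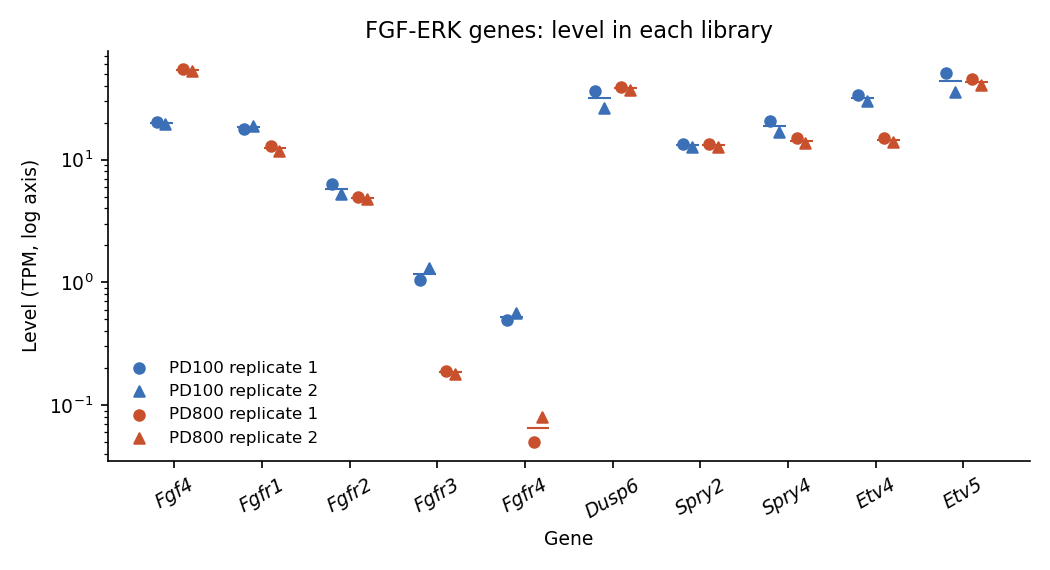
Level of each of the 10 genes (TPM, log axis) in the 2 PD100 libraries (blue) and the 2 PD800 libraries (red), with replicate 1 as a circle, replicate 2 as a triangle and the group mean as a line. *Fgf4* stands higher in both PD800 libraries, *Fgfr3* and *Fgfr4* lower, and *Spry2* and *Etv5* overlap between the groups on this scale.

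In PD100 cells the highest level belonged to *Etv5*, with a mean of 43.5 ± 10.8 TPM (SD, n = 2). *Etv4* (31.7 TPM) and *Dusp6* (31.5 TPM) came next and overlapped with each other, and the higher *Dusp6* library was above the lower *Etv5* library. *Fgf4* (20.04 TPM), *Spry4* (18.7 TPM) and *Fgfr1* (18.4 TPM) followed, each overlapping with its neighbour in the order, then *Spry2* at 13.1 TPM and *Fgfr2* at 5.77 TPM. In PD800 cells *Fgf4* had moved from the middle of the order to its top, at 53.6 ± 1.15 TPM (SD, n = 2), above *Etv5* (43.2 TPM) and *Dusp6* (38.1 TPM), and none of these 3 overlapped with another. *Etv4* (14.4 TPM) now overlapped with *Spry4* (14.2 TPM), and *Spry2* (13.0 TPM) with *Fgfr1* (12.4 TPM). *Fgfr3* and *Fgfr4* were last in both groups, and in PD800 cells both were under 0.2 TPM.

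*Fgf4* encodes the main FGF of the inner cell mass and of embryonic stem cells. The gene (ENSMUSG00000050917) lies on the plus strand of chromosome 7 from 144861386 to 144865245 in RefSeq's annotation of GRCm38, the assembly also called mm10. Its level was 20.4 and 19.7 TPM in the PD100 libraries and 54.4 and 52.7 TPM in the PD800 libraries. Both PD800 libraries were far above both PD100 libraries, and the replicates of each group lay close together. The expected counts behind these levels were 3036 and 2687 in PD100 and 8693 and 7990 in PD800, so depth did not limit the comparison. The log2 fold change was 1.66 (± 0.08 SE, Benjamini-Hochberg adjusted p = 6.95e-05 in edgeR's quasi-likelihood fit), a 3.15-fold rise with a 95% confidence interval from 2.76 to 3.59. Under every alternative tried *Fgf4* stayed higher past both thresholds, with log2 fold changes from 1.38 (limma on TPM values) to 1.68.

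The sequence just before a gene's start shows what kind of promoter is at hand. RefSeq's promoter windows were examined for 7 of the 10 genes. Those of *Fgfr1* and *Etv4* were missing, and *Spry4* was not examined. The stretches of the 3 called genes are printed 5′ to 3′ on the plus strand of GRCm38.p6, each ending where the next annotated exon of a protein-coding gene begins, or, for *Fgfr4*, after a motif that opens this exon. GENCODE M21 also starts *Fgf4* farther upstream, at 144847367, so by that annotation its stretch lies inside the gene, before the exon at which RefSeq starts it. Capitals mark a match to CCGGAA, the core of the site bound by ETS factors such as ETV4, ETV5 and ETS1.
Fgf4, chr7:144861136-144861385: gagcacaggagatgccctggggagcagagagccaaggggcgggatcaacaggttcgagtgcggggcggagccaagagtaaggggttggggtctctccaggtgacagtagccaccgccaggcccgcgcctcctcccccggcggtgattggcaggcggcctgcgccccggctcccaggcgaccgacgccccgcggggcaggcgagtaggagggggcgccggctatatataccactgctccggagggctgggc
Fgfr3, chr5:33721474-33721673: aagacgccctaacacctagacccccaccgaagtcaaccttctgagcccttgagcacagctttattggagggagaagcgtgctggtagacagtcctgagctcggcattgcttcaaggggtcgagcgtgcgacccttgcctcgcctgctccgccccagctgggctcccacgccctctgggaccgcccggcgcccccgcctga
Fgfr4, chr13:55152568-55152645: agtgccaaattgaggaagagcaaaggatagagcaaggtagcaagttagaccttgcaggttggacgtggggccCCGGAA

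All 3 windows were rich in GC. Over the full 250 bases before RefSeq's start, GC content was 71.2% in *Fgf4*, 66.8% in *Fgfr3* and 64.0% in *Fgfr4*, beside a median of 52.4% over all 32851 windows. Both strands were searched for 3 motifs. The ETS motif was CCGGAA. The motif of AP-1, the FOS and JUN factors, was TGANTCA. The cAMP response element was searched as TGACGTCA, and matches of different motifs were allowed to overlap. Across all windows 12.0% held the ETS motif, 6.75% the AP-1 motif and 1.55% the cAMP response element. Among the windows of the 7 genes, which number more than 1 for *Fgfr3* and *Etv5*, the only match was the ETS motif of *Fgfr4*, which starts 178 bases before RefSeq's start. *Fgf4*, *Fgfr2*, *Fgfr3*, *Dusp6*, *Spry2* and *Etv5* had no match in these letters and windows, and enhancers were not searched.

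*Fgf4* lies among other FGF genes near the end of chromosome 7, 0.459 Mb before its last annotated base. The gene nearest to it among those tested, *Fgf3*, lies 22.1 kb before it (middle to middle) and was at 2.80 and 2.46 CPM in PD100 and 1.28 and 1.37 CPM in PD800. Its log2 fold change was -0.99 (± 0.20 SE, Benjamini-Hochberg adjusted p = 0.00958 in edgeR's quasi-likelihood fit), just short of 2-fold. *Fgf15*, 35.4 kb after *Fgf4* and known as a signal from the gut to the liver, was called lower with a log2 fold change of -1.10 (± 0.17 SE, adjusted p = 0.00321 in the same edgeR fit). The chloride channel gene *Ano1*, 193 kb before *Fgf4*, was called lower at -1.54 (adjusted p = 0.0082 in the same edgeR fit), and the antisense gene *Gm26793* did not pass. The ligand that rose thus had 2 ligand genes beside it whose levels went down.

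Among the 40 tested genes nearest to *Fgf4*, all within 2.33 Mb of it, the median log2 fold change was 0.18, 3 were called higher and 6 lower, and 38 lay below *Fgf4*. The remaining 2 were *AC161763.1*, at 2.19 and 0.0512 Mb beyond it, and *Tspan32os*, at 1.84. These were named after their values had been seen. Genomic data were not analysed here, and the part of gene copies in any of these differences was not tested.

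**Figure D2:**
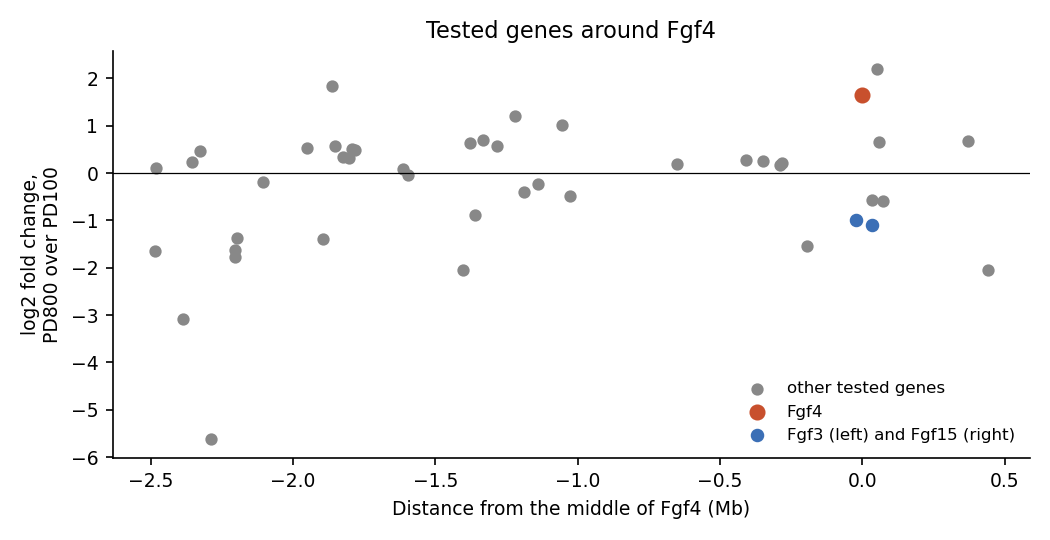
Log2 fold change (PD800 over PD100) of tested genes against their distance from the middle of *Fgf4* in Mb, with *Fgf4* in red, *Fgf3* and *Fgf15* in blue and other genes in grey. *Fgf4* (1.66) lies above *Fgf3* (-0.99) and *Fgf15* (-1.10), which lie on either side of it.

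The other ligands were mostly scarce. Of 21 listed, 13 had enough counts for a test, and the median of the 13 was -0.14. Of the 13, 1 was called higher and 2 lower, where 6.28% and 8.81% of all tested genes were. *Fgf1*, a ligand for all FGF receptors, rose from 0.22 and 0.21 TPM to 2.55 and 2.27 TPM, a log2 fold change of 3.59 (± 0.24 SE, Benjamini-Hochberg adjusted p = 0.000177 in edgeR's quasi-likelihood fit). Even so its TPM level in PD800 cells was far below that of *Fgf4*. *Fgf5*, which marks cells on their way out of the naive state, was the other ligand called lower besides *Fgf15*, at -1.86 (adjusted p = 0.0069 in the same edgeR fit). Neither call held without PD800 replicate 1 or with limma on log2(TPM + 1), where 0 of these ligands were called lower. No other ligand passed an adjusted p under 0.01 except *Fgf3*.

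All 4 receptor genes had negative log2 fold changes under every alternative tried, but the falls that were called belonged to the scarce receptors. *Fgfr1*, the main receptor of embryonic stem cells, is encoded on chromosome 8 (25518759 to 25575718, plus strand, ENSMUSG00000031565). It was at 17.8 and 18.9 TPM in PD100 cells and at 13.0 and 11.7 TPM in PD800 cells, so that the groups did not overlap. Its log2 fold change of -0.32 (95% confidence interval from -0.53 to -0.11) did not pass 0.01 (Benjamini-Hochberg adjusted p = 0.0257 in edgeR's quasi-likelihood fit, 0.000218 to 0.24 over the alternatives). *Fgfr2*, a receptor used by primitive endoderm and, with FGF4, by trophoblast stem cells, lies on chromosome 7 (130162451 to 130266808, minus strand, ENSMUSG00000030849). It was at 6.33 and 5.21 TPM in PD100 cells and at 4.96 and 4.76 TPM in PD800 cells. Its log2 fold change was -0.18, with an interval from -0.37 to 0.02 that bounds any fall at less than 1.5-fold (adjusted p = 0.126 in the same edgeR fit). GENCODE M21 lists a transcript of *Fgfr2* that shares 314 identical bases with *Ctbp2*, a gene with 8137 to 9640 expected counts per library, so the split of reads in that stretch is uncertain.

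*Fgfr3* encodes a receptor best known for restraining bone growth and lies on chromosome 5 (33721724 to 33737068, plus strand, ENSMUSG00000054252). It was at 1.04 and 1.3 TPM in PD100 cells and at 0.19 and 0.18 TPM in PD800 cells, from expected counts of 167 and 127 against 37 and 29. Both PD800 libraries were well below both PD100 libraries. The log2 fold change was -2.03 (± 0.20 SE, Benjamini-Hochberg adjusted p = 0.000632 in edgeR's quasi-likelihood fit), which is 4.10-fold lower.

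*Fgfr4*, a receptor known in liver and in endoderm, lies on chromosome 13 (55152818 to 55168759, plus strand, ENSMUSG00000005320). It was the scarcest of the 10 genes, at 0.49 and 0.56 TPM in PD100 cells and 0.05 and 0.08 TPM in PD800 cells. Expected counts were 81 and 84 in PD100 and 8 and 14 in PD800, so the PD800 values rest on few reads, although both are above the floor of 3 counts. The log2 fold change was -2.78 (± 0.35 SE, Benjamini-Hochberg adjusted p = 0.00152 in edgeR's quasi-likelihood fit), a 6.88-fold lower level, and stayed from -3.32 to -2.36 when any single library was dropped. On the log2(TPM + 1) scale, which compresses genes this low, *Fgfr3* was at -0.87 and *Fgfr4* at -0.52, and neither was called. With a pseudocount of 0.1 both were called again.

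The sum of the 4 receptor levels was 25.6 and 26.0 TPM in PD100 cells and 18.2 and 16.7 TPM in PD800 cells. *Fgfr1* made up 69.3% and 72.8% of this sum in PD100 and 71.4% and 70.0% in PD800, so its share overlapped between the groups. *Fgfr2* took 24.7% and 20% in PD100 and 27.3% and 28.5% in PD800. *Fgfr3* went from 4.06% and 5% to 1.04% and 1.08%, and *Fgfr4* from 1.91% and 2.15% to 0.275% and 0.478%. The receptor set of PD800 cells was thus almost wholly *Fgfr1* and *Fgfr2* transcripts, as most of it had already been in PD100 cells.

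**Figure D3:**
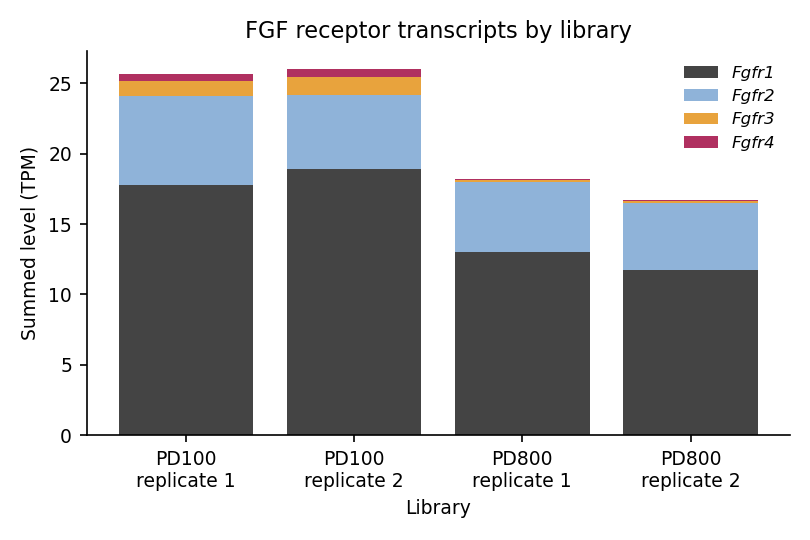
Levels of the 4 FGF receptor genes (TPM) stacked for each library. The sum is 25.6 and 26.0 TPM in PD100 and 18.2 and 16.7 TPM in PD800, *Fgfr1* is the largest part of every bar, and *Fgfr3* and *Fgfr4* are thin at PD100 and barely visible at PD800.

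The lengths that RSEM assigned describe the isoforms behind these counts. RSEM's weighted transcript length of *Fgfr2*, which has 27 annotated transcripts, was 2517 and 2698 bases in PD100 cells and 2322 and 2335 bases in PD800 cells, and the groups did not overlap. *Fgfr3* varied most, from 2209 to 3685 bases, but with overlap. With 2 libraries a group this is a description, and *Fgfr2* was the only gene of the 10 without overlap. Which isoforms carried the difference, and the part of the stretch shared with *Ctbp2* in it, were not analysed here.

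Other proteins at the receptor were mixed. Of 12 co-receptors and adaptors, all tested, 1 was called higher and 3 lower (0 of either with limma on log2(TPM + 1)), with a median of -0.29. Of all tested genes, 6.28% were called higher and 8.81% lower. At an adjusted p under 0.01 with any fold, 3 of the 12 were higher and 4 lower, against 13.1% and 15.4% of all tested genes. The klotho co-receptor gene *Klb*, which pairs with FGFR4 to receive FGF15, was counted 204 and 113 times in PD100 cells and 13 and 3 times in PD800 cells, for a log2 fold change of -4.16 (± 0.48 SE, Benjamini-Hochberg adjusted p = 0.00112 in edgeR's quasi-likelihood fit). The decoy receptor gene *Fgfrl1* was called lower at -1.41. *Sos1*, the exchange factor that loads RAS, was called lower at -1.15 (adjusted p = 0.000596 in the same edgeR fit), a call lost under all 3 limma settings (adjusted p = 0.0111 to 0.0449). *Kl*, the other klotho gene, was called higher, from expected counts of 5 and 7 to 29 and 23, but it was not called with DESeq2, with limma or without either PD800 library. *Klb*, *Fgfrl1* and *Kl* are outside the rule for named genes because of their low level, and were named to complete the count. Of the abundant adaptor genes that did not pass at any fold, *Ptpn11* and *Shc1* had log2 fold changes of -0.29 and -0.28 (adjusted p = 0.0237 and 0.0479 in the same edgeR fit).

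Between the receptors and the targets stand RAS, RAF, MEK and ERK. Of these 14 genes, 2 were called, both higher (1 with DESeq2's Wald test and 0 with limma on log2(TPM + 0.1)), and their median was 0.32. Of all tested genes, 6.28% were called higher. At an adjusted p under 0.01 with any fold, 4 of the 14 were higher, against 13.1% of all tested genes. *Mras*, which activates the phosphatase complex that releases RAF, rose from 6.54 and 4.57 TPM to 17.1 and 14.7 TPM, a log2 fold change of 2.10 (Benjamini-Hochberg adjusted p = 0.000129 in edgeR's quasi-likelihood fit). The call of *Mras* was lost with limma on log2(TPM + 0.1), at 1.52 and an adjusted p of 0.0123. It was also lost with limma on log2(TPM + 1) over all genes with any TPM above 0 (adjusted p = 0.0456). *Nras* was called at a log2 fold change of 1.00, which sits on the 2-fold line, and was not called under 10 alternatives. The gene of the kinase MEK1, *Map2k1*, was at a log2 fold change of 0.38 and did not pass (adjusted p = 0.0192 in the same edgeR fit).

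Of the feedback inhibitors, *Dusp6* encodes the phosphatase that removes phosphate from ERK in the cytoplasm, and lies on chromosome 10 (99263231 to 99267489, plus strand, ENSMUSG00000019960). Its level was 36.6 and 26.5 TPM in PD100 cells and 39.2 and 37.0 TPM in PD800 cells. On this scale the lower PD800 library was barely above the higher PD100 library. In CPM, which takes no account of length, the PD100 libraries were at 100.0 and 96.4 and the PD800 libraries both at 142.7. RSEM gave *Dusp6* transcript lengths of 2294 and 2712 bases in the PD100 libraries, which are farther apart than the 2509 and 2508 bases in PD800, with near equal group means of 2503 and 2509 bases.

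The log2 fold change of *Dusp6* was 0.54 (± 0.07 SE, Benjamini-Hochberg adjusted p = 0.00186 in edgeR's quasi-likelihood fit), a 1.45-fold rise with an interval from 1.29 to 1.64. On the TPM scale it did not pass, with 0.28 and an adjusted p of 0.275 from limma on log2(TPM + 1). Without PD800 replicate 1 or 2 the log2 fold change was 0.55 each time, and the adjusted p was 0.0333 and 0.0288 in the same edgeR fit. Over all alternatives the adjusted p ranged from 3.35e-07 to 0.461.

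*Spry2* and *Spry4* encode Sprouty proteins, which block the step from receptor to RAS. *Spry2* (chromosome 14, 105891947 to 105896819, minus strand, ENSMUSG00000022114) was at 13.4 and 12.8 TPM in PD100 cells and at 13.5 and 12.6 TPM in PD800 cells, with overlap. In CPM the groups did not overlap, at 33.1 and 35.2 against 40.3 and 39.9. Its log2 fold change was 0.23 (interval 0.04 to 0.42, Benjamini-Hochberg adjusted p = 0.0513 in edgeR's quasi-likelihood fit), and turned to -0.01 with limma on TPM values. *Spry4* (chromosome 18, 38586247 to 38601347, minus strand, ENSMUSG00000024427) was at 20.7 and 16.8 TPM in PD100 and at 14.9 and 13.6 TPM in PD800. Its log2 fold change was -0.15 (interval -0.36 to 0.05, adjusted p = 0.194 in the same edgeR fit). The intervals bound both Sprouty genes to changes under 1.5-fold in either direction in this fit.

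Some of the other inhibitors were called. Of 17 others listed, 16 were tested and 5 were called, all 5 lower, where 8.81% of all tested genes were called lower. The median of the 16 was -0.35. At an adjusted p under 0.01 with any fold, 7 were lower, against 15.4% of all tested genes. *Spry3* was not analysed here. *Dusp4*, a nuclear ERK phosphatase, went from 19.5 and 20.5 TPM to 1.67 and 1.87 TPM, a log2 fold change of -3.26 (± 0.13 SE, Benjamini-Hochberg adjusted p = 4.91e-05 in edgeR's quasi-likelihood fit). *Dusp5*, another nuclear ERK phosphatase, went from 12.0 and 11.2 TPM to 1.31 and 1.08 TPM, a log2 fold change of -3.04 (adjusted p = 3.91e-05 in the same edgeR fit). *Dusp1* fell by 1.74 on the log2 scale and *Errfi1*, an inhibitor of the EGF receptor, by 1.11. The call of *Errfi1* was lost without PD100 replicate 1 (-0.94) and under 2 limma settings (adjusted p = 0.0116 and 0.0425). *Dusp2*, the remaining gene called lower, is scarce, counted 47 and 39 times in PD100 cells and 3 and 8 times in PD800 cells. *Dusp9*, another cytoplasmic ERK phosphatase, had a log2 fold change of -0.30 and *Spred1* one of -0.13, and neither passed.

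*Etv4* and *Etv5* encode ETS factors of the PEA3 group and are direct readouts of FGF signalling in many tissues. *Etv4* (chromosome 11, 101769747 to 101785310, minus strand, ENSMUSG00000017724) was at 33.4 and 29.9 TPM in PD100 cells and at 14.9 and 13.9 TPM in PD800 cells. Both PD800 libraries were under the lower PD100 library by a wide gap. The log2 fold change was -0.94 (± 0.11 SE, Benjamini-Hochberg adjusted p = 0.00129 in edgeR's quasi-likelihood fit), which is 1.91-fold lower and just short of the 2-fold line. At the same thresholds *Etv4* was called lower under 4 alternatives, among them without PD100 replicate 2, where the log2 fold change was -1.09. Without PD100 replicate 1 it was -0.78.

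*Etv5* (chromosome 16, 22381313 to 22439570, minus strand, ENSMUSG00000013089) was at 51.1 and 35.8 TPM in PD100 cells and at 45.8 and 40.6 TPM in PD800 cells, so that on this scale both PD800 libraries lay between the PD100 libraries. In CPM they lay above them, at 266.1 and 251.9 against 247.5 and 194.1. The log2 fold change was 0.23 (interval -0.08 to 0.54, Benjamini-Hochberg adjusted p = 0.189 in edgeR's quasi-likelihood fit). It depended on the PD100 replicate used, at 0.42 without replicate 1 (adjusted p = 0.000402 in the same edgeR fit) and 0.04 without replicate 2, over a range of 0.000402 to 0.998 across the alternatives. The pseudogene *Gm4798* is 98.6% identical to *Etv5* over 1700 bases, so how reads were split between the pair is uncertain. RSEM's split left *Gm4798* with expected counts of 68.5 and 32.9 at PD100 and 72.6 and 56.7 at PD800, beside 9992, 6479, 9563 and 8095 for *Etv5*. The reads that could belong to either gene were not counted. Whether *Etv4* and *Etv5* differed in their change was not tested.

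**Figure D4:**
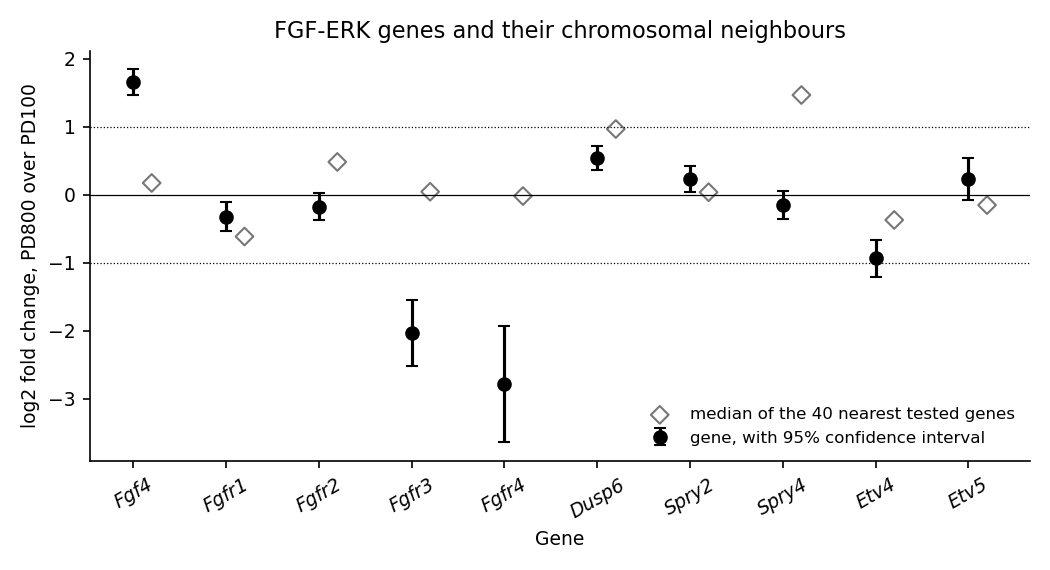
Log2 fold change (PD800 over PD100) of each of the 10 genes with its 95% confidence interval (black), and the median of its 40 nearest tested genes (grey diamond). Dotted lines mark 2-fold changes, *Fgf4* lies above the upper line, *Fgfr3* and *Fgfr4* lie below the lower line, and the diamonds of *Dusp6* and *Spry4* lie above their genes.

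The chromosomal neighbours of some of the 10 genes moved as well. *Spry4* was at -0.15 where its 40 nearest tested genes, within 0.871 Mb, had a median of 1.47 with 23 called higher, and 39 of the 40 lay above it. *Fgf1*, the ligand that rose most, is 290 kb from *Spry4* in that region. With the 20 nearest genes, within 0.79 Mb, the median was 0.70 and 3 were called higher, so most of those calls lie in the outer part of the region. *Dusp6*, at 0.54, lay in a region of chromosome 10 with a median of 0.97 and 13 genes called higher, 28 of 40 above *Dusp6*.

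The called receptors also lay below nearly all of their neighbours. The neighbours of *Fgfr3* had a median of 0.05 and those of *Fgfr4* one of -0.02, and 40 of 40 and 39 of 40 lay above their receptor. *Fgfr2* (-0.18) lay among genes with a median of 0.48, and *Fgfr1* (-0.32) among genes with a median of -0.61, of which 27 of 40 lay below *Fgfr1*. *Etv4* (-0.94) had neighbours that were also lower, with a median of -0.37 and 6 of 40 called lower. *Etv5* and *Spry2* had neighbour medians of -0.15 and 0.04.

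**Figure D5:**
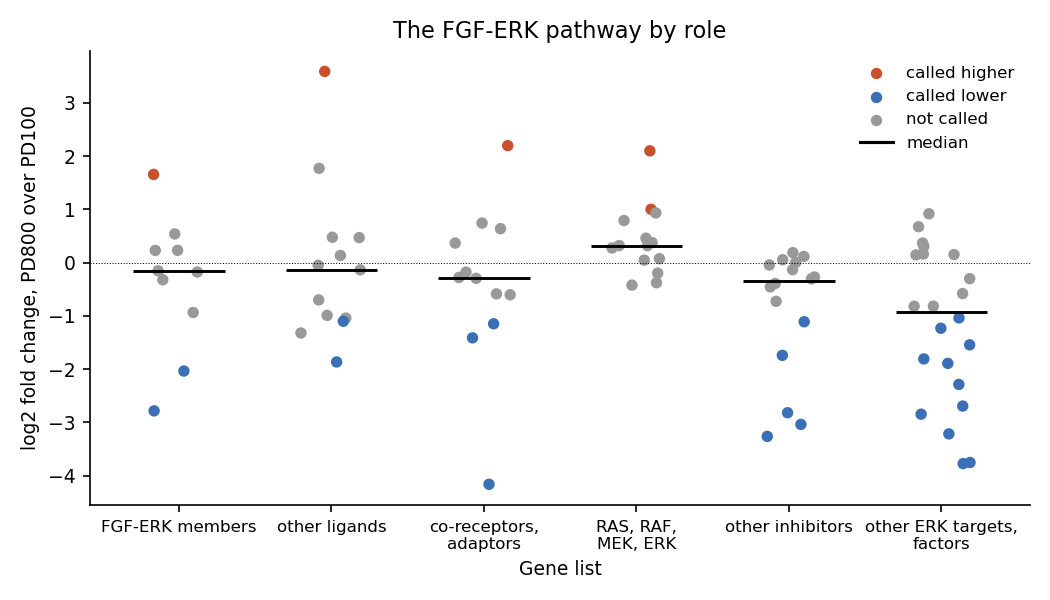
Log2 fold change (PD800 over PD100) of every tested gene in the lists by role, coloured by call, with a line at each list's median. The medians are -0.16 for the 10 genes, -0.14 for other ligands, -0.29 for co-receptors and adaptors, 0.32 for RAS to ERK, -0.35 for other inhibitors and -0.93 for other ERK targets and factors.

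The other targets and transcription factors of ERK signalling were the list with the most calls. Of 23 listed, 22 were tested and 11 were called, all 11 lower, where 8.81% of all tested genes were called lower. The median was -0.93 beside 0.01 for all genes. With limma on log2(TPM + 1), 7 were called lower, *Egr1* no longer among them, and 1 when all genes with any TPM above 0 were tested. At any fold, 2 were higher, *Erf* (0.92) and *Ets2* (0.67), and 14 lower, against 13.1% and 15.4% of all tested genes. *Ets1* had the lowest log2 fold change, -3.77 (± 0.14 SE, Benjamini-Hochberg adjusted p = 4.81e-05 in edgeR's quasi-likelihood fit), from 2.40 and 1.93 TPM to 0.13 and 0.14 TPM. Some of the genes called lower are immediate early genes, which growth factors switch on within minutes. *Egr1* fell from 4.59 and 2.66 TPM to 0.56 and 0.38 TPM, *Junb* from 35.5 and 30.6 TPM to 6.38 and 5.2 TPM, and *Fosl2* by 3.75 on the log2 scale. *Myc* fell from 14.5 and 14.3 TPM to 3.77 and 3.49 TPM, or -1.81 as log2 fold change (adjusted p = 7.99e-05 in the same edgeR fit). The ephrin receptor genes *Epha2* and *Epha4* did not pass, at -0.30 and 0.15. Many of these genes also answer to serum and stress.

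Markers of other cells moved at the same time. In these bulk libraries, fewer cells of a type and less RNA per cell cannot be told apart. The paper also sequenced RNA of single PD100 and PD800 cells, and reported distinct populations that were each highly homogeneous. Those single-cell data were not analysed here. The cells carried the RNA of embryonic stem cells in every library, with all 8 markers tested. All 8 had positive log2 fold changes in this fit, 2 were called higher, *Nanog* (2.33) and *Esrrb* (2.06), and *Dppa5a*, the most abundant, did not pass. Both calls were lost with limma on log2(TPM + 1) over all genes with any TPM above 0 (adjusted p = 0.0155 and 0.0137). Of all genes tested in the main fit, 6.28% were called higher and 8.81% lower. The summed level of the 10 primitive endoderm markers went from 42.3 and 33.7 TPM in PD100 cells to 2.28 and 2.16 TPM in PD800 cells, and all 8 that could be tested were called lower. *Gata4* was at 10.5 and 6.54 TPM in PD100 and 0.84 and 0.88 TPM in PD800, *Sox17* at 9.36 and 9.56 against 0.16 and 0.11 TPM, *Pdgfra* at 4.83 and 4.24 against 0.14 and 0.09 TPM and *Gata6* at 4.06 and 3.14 against 0.25 and 0.23 TPM. Both PD800 libraries held transcripts of *Gata4*, *Sox17*, *Pdgfra* and *Gata6*, but not of every marker in the list. The calls of *Gata4* and *Gata6* were lost with limma on log2(TPM + 1) over all genes with any TPM above 0 (adjusted p = 0.0293 and 0.015). With 2 groups, every gene called lower fell between the same groups as these markers, *Fgfr3* and *Fgfr4* among them. The part of such cells in any of these falls was not tested.

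Fibroblast markers, which feeders would bring, summed to 13.7 and 14.0 TPM in PD100 cells and 3.56 and 3.69 TPM in PD800 cells, with 5 of 8 tested called lower. *Col1a1* was at 1.81 and 2.97 TPM in PD100 and 0.22 and 0.32 TPM in PD800, *Col1a2* fell by 2.33 on the log2 scale, *Fbn1* by 0.56, and *Lum* was at 3 counts or fewer in every library. Markers of primed epiblast summed to 84.2 and 78.0 TPM in PD100 and 24.3 and 23.1 TPM in PD800. Of these, 4 of 6 were called lower, among them *Dnmt3b* (-1.76), *Otx2* (-1.35) and *Pou3f1* (-2.82), and *Fgf5*, the fourth, is also counted among the ligands above. Trophoblast markers were low and mixed, with a sum of 4.06 and 3.30 TPM in PD100 and 2.52 and 2.05 TPM in PD800. Of 4 tested, *Eomes* was called higher at 1.98, a call lost under all 3 limma settings, and 2 were called lower. The part of these cell types in the changes of *Fgf4*, *Fgfr3*, *Fgfr4* and *Etv4* was not tested.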

How the data were processed

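Bulk RNA of DKO741 cells at PD100 and PD800 (2 libraries each) was analysed. The sample labels name total RNA and the study's methods mRNA sequencing. The authors mapped read pairs with STAR 2.5.3a (mm10) and deposited RSEM 1.3.0 gene tables with an expected count (reads that align to several genes are divided between them), a TPM value and a weighted transcript length. Whether counting used strand is not given in the sources used here, so overlapping antisense genes cannot be separated from *Fgfr1*, *Fgfr3* and *Spry4*. These antisense genes had at most 12.9 counts.

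Expected counts were rounded and tested with edgeR 4.0.16 under R 4.3.3 (TMM, filterByExpr at min.count 10, glmQLFit and glmQLFTest, Benjamini-Hochberg adjustment over 19148 genes). Calls needed an adjusted p below 0.01 plus a change beyond 2-fold. The procedure was tested on simulated data. TPM values served as levels. The alternatives were limma 3.58.1 on log2 TPM, DESeq2 1.42.0, other normalisations, filters and thresholds, the replicate block and each library left out.

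The 10 genes and all lists were chosen with earlier results of these data known, and no list was tested as a set. Named from each other list were called genes averaging 5 CPM or more (at most 5, by size of change) and at most 2 abundant genes (at least 50 CPM) that did not pass, of which 1 is not reported here. From marker lists, the most abundant gene and called genes of at least 5 CPM were named, at most 4 a list. *Fgf5*, *Dusp2*, *Erf*, *Ets2*, *Lum*, *Klb*, *Fgfrl1* and *Kl* were also named, outside these rules. Of neighbours, the 2 nearest on each side of *Fgf4* were named. Positions of the 10 genes came from RefSeq and those of neighbours from GENCODE M21, which holds 53274 of the 53379 identifiers. Transcripts were compared with blastn 2.17.0.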

Additional observations from a re-analysis of the deposited data

How the results depend on the processing

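The calls of *Fgf4* held under every alternative tried, while the counts by list were small numbers that moved easily. Another scaling shifted all genes: the transcriptome-wide median (log2) was -0.10 with library totals, -0.12 with limma on log2(TPM + 1) and -0.21 with limma on log2(TPM + 0.1), and higher genes made up 33.2%, 23.9% and 22% of calls, against 41.6%. On the TPM scales the log2 fold change of *Spry2* turned to -0.005 and -0.006 and that of *Epha4* to -0.207 and -0.228. *Etv4* was called at -1.05 with library totals and at -1.08 and -1.13 with limma. *Nras* was below 2-fold without PD100 replicate 2 (0.96), *Errfi1* without PD100 replicate 1 (-0.94), and *Dppa5a* was called at 1.01 without PD100 replicate 2.

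Of the 10 genes, 2 were higher at an adjusted p under 0.01 with any fold. The count of those called lower was 1 with at least 10 counts in every library, where *Fgfr4* was not tested, 1 with limma on log2(TPM + 1), and 0 when limma tested all genes with any TPM above 0, a setting that tested 32318 genes and called 75 higher and 277 lower. Of other ligands, 2 were higher without a filter and at an adjusted p under 0.05 with a fold over 1.5, and the lower ones numbered 1 with DESeq2, 4 with library totals or no filter, 6 at the looser threshold and 0 with limma at a pseudocount of 1. Of co-receptors and adaptors, 0 were higher with DESeq2, limma or 10 counts everywhere, and 3 at either other threshold, and the lower ones numbered 0 with limma at a pseudocount of 1 and 5 at the looser threshold. Of RAS to ERK genes, 1 was higher with DESeq2, its size factors, library totals, mitochondrial genes left out, no filter, 10 counts everywhere or limma on log2(TPM + 1), 0 with the other limma settings, and 4 at either other threshold. Of other inhibitors, 2 were lower with limma on all genes. Of other targets, 2 were higher at either other threshold, and 7 and 1 were lower with limma at a pseudocount of 1, filtered and on all genes. The cause of these moves was not tested.

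When single libraries were dropped, so that the lone library of a group is assumed to vary like the others, the lower ligands numbered 0 to 4 (0 without PD800 replicate 1 and 4 without PD100 replicate 2), the higher co-receptors and adaptors 0 to 1 (0 without either PD800 library), the higher RAS to ERK genes 1 to 2 (1 without PD100 replicate 2) and the higher other targets 0 to 1 (1 without PD100 replicate 1). The median of *Spry4*'s neighbours moved to 0.696 with 20 genes.

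Same-numbered libraries share only a number. Their deviations from the group means correlated at 0.265, which with 2 pairs does not show a pairing. With the replicate block, 1461 genes were higher and 1956 lower in all, 1 of the 10 genes was higher and 2 lower, *Fgf4* was at 1.66, *Fgfr3* at -2.04 and *Fgfr4* at -2.79, and 3 ligands were lower. Depth limits *Fgfr4* in PD800 cells, where 8 and 14 counts carry its level.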
